A study of Mus musculus with 16 samples.

Results

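The 7 genes described here belong to the YAP and TEAD pathway and were chosen by symbol. They are Yap1 and Wwtr1, which encode the coactivators YAP and TAZ, Tead1, which encodes a DNA-binding partner of both, and the target genes Ctgf, Cyr61, Ankrd1 and Amotl2. All 7 were found among the 16973 genes of the deposited table. Their read counts were compared in 16 livers of male C57BL/6 mice. METTL3 hepatocyte-specific knockout livers were set against METTL3 flox/flox livers, and livers labelled RPN11 hepatocyte-specific knockout against RPN11 flox/flox livers, with 4 livers in each group. METTL3 is the catalytic subunit of the enzyme complex that writes N6-methyladenosine on mRNA, and RPN11 is the deubiquitylating enzyme of the proteasome, encoded by Psmd14. Nonalcoholic fatty liver disease is the setting named in the series title. The mice were kept under specific pathogen free conditions with food and water freely available. The sources used here give neither their age and diet nor the promoter that drove recombination in the hepatocytes. The knockouts are labelled as confined to hepatocytes, so the other cells of these livers would keep the gene.

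YAP and TAZ are transcriptional coactivators that carry no DNA-binding domain of their own and reach promoters and enhancers mainly through TEAD proteins. The Hippo kinases MST and LATS phosphorylate them, which keeps them out of the nucleus and marks them for degradation, so much of their control lies in the protein and not in the transcript. In mouse liver this pathway limits organ size and hepatocyte proliferation, and active YAP pushes hepatocytes toward a biliary and progenitor-like state. In hepatic stellate cells and endothelial cells the same coactivators respond to stiffness, injury and TGF-beta, and Ctgf and Cyr61 are among their best known targets there.

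TEAD proteins recognise the sequence GGAATG, which reads CATTCC on the opposite strand. RefSeq promoter windows of GRCm38.p6, running from 250 bases before to 50 bases after a transcription start, were matched for 5 of the 7 genes, and Tead1 and Ctgf had no entry. The windows of the 3 matched target genes are shown in full, and a 30-base stretch is shown for each coactivator, because these are the stretches that hold the sequence. They read 5′ to 3′ on the gene's own strand, with GGAATG or CATTCC in capitals. Cyr61 is listed there under its current symbol, Ccn1.
Cyr61, chr3:145649936-145650235, minus strand: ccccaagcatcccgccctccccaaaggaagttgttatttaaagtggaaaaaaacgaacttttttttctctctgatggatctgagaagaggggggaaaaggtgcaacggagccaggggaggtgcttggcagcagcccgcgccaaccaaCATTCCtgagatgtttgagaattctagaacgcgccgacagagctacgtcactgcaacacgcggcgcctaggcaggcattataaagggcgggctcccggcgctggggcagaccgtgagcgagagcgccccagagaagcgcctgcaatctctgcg
Ankrd1, chr19:36119795-36120094, minus strand: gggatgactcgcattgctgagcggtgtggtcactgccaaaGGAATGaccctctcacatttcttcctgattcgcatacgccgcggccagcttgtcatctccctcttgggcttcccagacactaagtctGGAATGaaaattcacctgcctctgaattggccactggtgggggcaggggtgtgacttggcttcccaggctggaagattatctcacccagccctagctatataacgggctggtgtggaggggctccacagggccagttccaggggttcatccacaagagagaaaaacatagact
Amotl2, chr9:102717554-102717853, plus strand: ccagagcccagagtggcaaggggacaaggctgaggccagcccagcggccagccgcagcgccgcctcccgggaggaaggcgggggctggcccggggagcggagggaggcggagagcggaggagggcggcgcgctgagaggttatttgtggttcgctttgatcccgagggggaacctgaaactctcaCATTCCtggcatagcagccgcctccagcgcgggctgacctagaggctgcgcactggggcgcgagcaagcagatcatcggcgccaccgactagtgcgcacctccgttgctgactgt
Yap1, chr9:8004720-8004749, minus strand: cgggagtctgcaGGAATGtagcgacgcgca
Wwtr1, chr3:57576029-57576058, minus strand: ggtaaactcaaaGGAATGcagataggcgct

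All 5 matched genes held the sequence at least once when both strands were searched for GGAATG and CATTCC, which are reverse complements and count as 1 motif. It stood 103 bases before the start of Cyr61, 65 bases before that of Amotl2 and 141 bases before that of Yap1. Ankrd1 held it 210 and 123 bases before its start, and Wwtr1 136 or 170 bases before its annotated starts. Of 32851 promoter windows of the same length, 4817 (14.7%) held it at least once. Counted by gene, 4481 of 27025 (16.6%) held it in a window. A match of 6 letters describes these windows and shows no binding.

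METTL3 knockout libraries held 15980959 to 27778135 counts and METTL3 flox/flox libraries 25062848 to 29029592. Libraries labelled RPN11 knockout held 20938715 to 27645935 counts and RPN11 flox/flox libraries 24516234 to 28212133. Levels are given as CPM, counts scaled by TMM-adjusted library size over the 16 livers. The scaling factors ran from 0.964 to 1.49 in METTL3 knockouts against 0.883 to 0.937 in METTL3 flox/flox livers. Those of livers labelled RPN11 knockout ran from 0.945 to 1.18, against 0.882 to 0.911 in RPN11 flox/flox livers. Mettl3 was at 6.42 ± 0.139 CPM in METTL3 knockouts and 15.7 ± 2.0 CPM in METTL3 flox/flox livers (SD, n = 4 each), without overlap. Psmd14 was at 77.7 ± 13.0 CPM in livers labelled RPN11 knockout and 78.5 ± 3.62 CPM in RPN11 flox/flox livers (SD, n = 4 each, edgeR adjusted p = 0.976), so its whole-gene count did not bear out that label and says nothing of the protein. Neural marker transcripts summed to 270 CPM in METTL3 knockout 4 and 408 CPM in labelled RPN11 knockout 4, against 12.7 to 23.4 CPM in the other 14 livers, so counts are also given without these libraries. Labelled RPN11 knockouts 1 and 3 were the most similar libraries (chi-square per gene 8.15, next lowest 28.7 among pairs of 1 group). They are labelled as separate livers and differed by more than sampling noise, which gives about 1 per gene, so they were counted as 2 samples. If they shared a mouse, n would be 3 in that group. The labels give numbers within groups and do not say that the livers came from separate litters or days, so p-values measure the spread between these samples, which may be technical. In whole liver, fewer cells of a type and less RNA per cell cannot be told apart.

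Compared per length of exon, in RPKM, which divides CPM by exon length in kilobases, the coactivators were the most abundant of the 7 transcripts. Yap1 (ENSMUSG00000053110, chromosome 9, 7931999 to 8004596, GRCm38, minus strand) averaged 9.15 RPKM over the 16 livers, above 81.3% of the genes in the table. Wwtr1 (ENSMUSG00000027803, chromosome 3, 57455649 to 57575910, minus strand) averaged 7.48 RPKM. Of the targets, Cyr61 (ENSMUSG00000028195, chromosome 3, 145646976 to 145649981, minus strand) averaged 5.89 RPKM, Amotl2 (ENSMUSG00000032531, chromosome 9, 102716672 to 102733418, plus strand) 5.08 RPKM and Ctgf (ENSMUSG00000019997, chromosome 10, 24595442 to 24598683, plus strand) 4.26 RPKM. Tead1 (ENSMUSG00000055320, chromosome 7, 112679318 to 112906807, plus strand) averaged 1.31 RPKM, near the middle of the table with 49.5% of genes below it. Ankrd1 (ENSMUSG00000024803, chromosome 19, 36111961 to 36120099, minus strand) was the lowest at 0.276 RPKM. The ranges over the 16 livers overlapped between all neighbours in this order except Ctgf and Tead1. Exons of Yap1 overlap the antisense gene Gm20416 and exons of Ctgf the antisense gene Gm15270, and the sources used here do not give the strandedness of the libraries, so reads of these partners cannot be told apart.

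**Figure D1:**
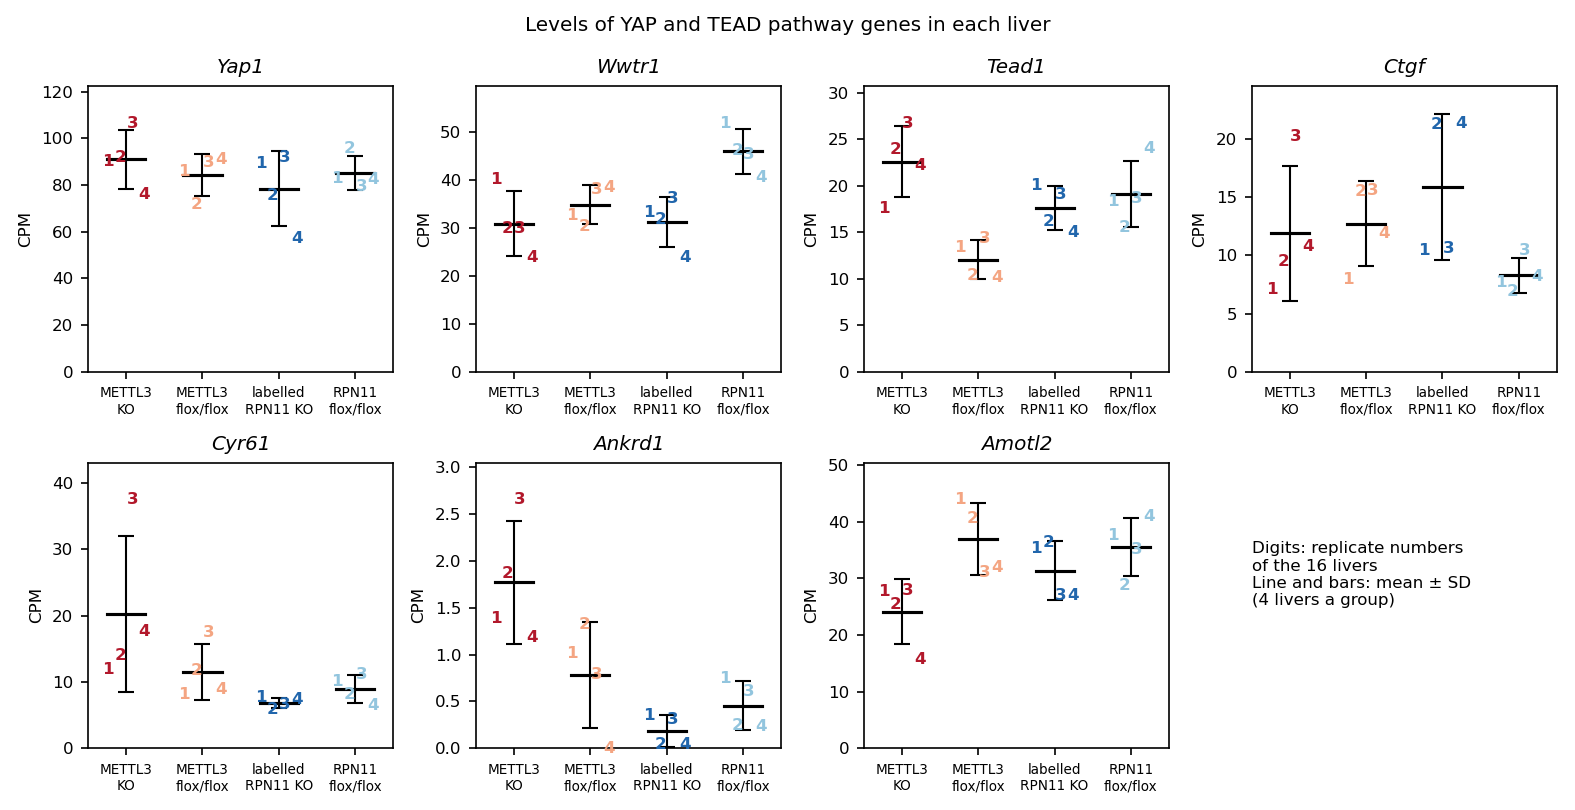
Level of each of the 7 genes in each liver (vertical axis, CPM over TMM-scaled library sizes, starting at 0), with digits giving the replicate number, lines the group mean and bars the SD of 4 livers. The 4 METTL3 knockouts lie above the 4 METTL3 flox/flox livers for Tead1 and below them for Amotl2, and the 4 livers labelled RPN11 knockout lie below the 4 RPN11 flox/flox livers for Wwtr1.

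The comparison of METTL3 knockout with METTL3 flox/flox livers asks whether loss of METTL3 in hepatocytes went with a change of these transcripts. Tead1 rose 1.88-fold in the knockouts and Amotl2 fell 1.53-fold, while neither coactivator nor the targets Ctgf, Cyr61 and Ankrd1 passed the test. That is 2 of 7 genes, where 30.5% of all 12450 tested genes were called in this comparison, 15.2% as higher and 15.3% as lower. The share of the 7 is thus near that of genes in general. Genes are called at an edgeR quasi-likelihood p under 0.05 after Benjamini-Hochberg adjustment over all genes tested.

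The groups overlapped for both coactivators. Yap1 was at 89.9, 91.8, 106 and 75.7 CPM in METTL3 knockouts, against 85.6, 71.5, 89.6 and 91.0 CPM in METTL3 flox/flox livers. Knockout 3 was the highest and flox/flox liver 2 the lowest of the 8, and the log2 fold change was 0.11 (SE 0.13, edgeR adjusted p = 0.552). Wwtr1 was at 40.2, 29.8, 29.97 and 23.8 CPM in METTL3 knockouts and at 32.6, 30.3, 38.1 and 38.4 CPM in METTL3 flox/flox livers. Knockout 1 held the highest value of the 8 and knockout 4 the lowest, and the log2 fold change was -0.17 (SE 0.16, edgeR adjusted p = 0.437). With plain library totals in place of TMM, which raised the median log2 fold change of all genes to 0.46 from 0.04, Yap1 passed the test at 0.53 (edgeR adjusted p = 0.0152) and Wwtr1 turned to 0.22 (edgeR adjusted p = 0.107).

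Tead1, the TEAD family member of the list, was at 17.6, 23.9, 26.7 and 22.1 CPM in METTL3 knockouts, against 13.4, 10.4, 14.3 and 10.1 CPM in METTL3 flox/flox livers. Every knockout lay above every control. Groups did not overlap for 31.2% of tested genes, 15.3% with the knockouts higher. The log2 fold change was 0.91 (SE 0.18, edgeR adjusted p = 0.00427). The call held under all 16 alternatives, with log2 fold changes from 0.83 to 1.35 and adjusted p from 0.000148 to 0.0170. The METTL3 flox/flox livers were themselves the lowest of the 4 groups for Tead1, at 12.1 ± 2.10 CPM (SD, n = 4), against 22.6 ± 3.82 CPM in METTL3 knockouts, 17.6 ± 2.37 CPM in livers labelled RPN11 knockout and 19.1 ± 3.57 CPM in RPN11 flox/flox livers (SD, n = 4 each).

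Of the targets, Amotl2 encodes an angiomotin family protein that binds YAP and holds it at cell junctions. It was at 27.6, 25.3, 27.8 and 15.7 CPM in METTL3 knockouts, against 43.8, 40.6, 31.0 and 32.0 CPM in METTL3 flox/flox livers. The groups did not overlap, which held for 15.9% of tested genes in that direction. Knockout 4, which also held the neural transcripts, was the lowest. The log2 fold change was -0.61 (SE 0.19, edgeR adjusted p = 0.0283). The call was lost without knockout 2 (adjusted p = 0.0574), knockout 4 (0.0508), flox/flox liver 1 (0.0892) or flox/flox liver 2 (0.0775), and with plain library totals (log2 fold change -0.22, adjusted p = 0.340).

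The matricellular proteins encoded by Ctgf and Cyr61 are secreted in injury and growth. Ctgf was at 7.09, 9.46, 20.2 and 10.7 CPM in METTL3 knockouts, against 7.96, 15.5, 15.6 and 11.9 CPM in METTL3 flox/flox livers. Knockout 3 was the highest and knockout 1 the lowest of the 8, and the log2 fold change was -0.10 (SE 0.32, edgeR adjusted p = 0.846). Cyr61 was at 11.9, 14.0, 37.5 and 17.6 CPM in METTL3 knockouts, against 8.07, 11.7, 17.5 and 8.91 CPM in METTL3 flox/flox livers. The groups overlapped through flox/flox liver 3, and knockout 3 stood well above the rest. The log2 fold change of Cyr61 was 0.81 (SE 0.38, edgeR adjusted p = 0.130), and plain library totals brought it past the threshold at 1.26 (adjusted p = 0.0319). Ctgf turned to 0.34 under those totals without passing the test.

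Ankrd1, a nuclear and sarcomeric ankyrin repeat protein that is low in healthy liver, had 36, 65, 89 and 28 reads in METTL3 knockouts, against 26, 34, 18 and 0 reads in METTL3 flox/flox livers. These are 1.39, 1.86, 2.65 and 1.18 CPM against 1.01, 1.32, 0.793 and 0 CPM. A count of 0 in flox/flox liver 4 allows up to 3 reads, or 0.122 CPM, by counting error alone. The groups overlapped through knockout 4 and flox/flox liver 2, while the other 3 knockouts lay above every control. The log2 fold change was 1.18 (SE 0.87, edgeR adjusted p = 0.320), so the direction was not resolved at this depth.

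The comparison of livers labelled RPN11 knockout with RPN11 flox/flox livers asks the same of the other line. Wwtr1 fell 1.45-fold in the livers so labelled, and no other member passed the test. Ctgf was 1.96-fold higher on average, but its groups overlapped. That is 1 of 6 tested genes, where 4.81% of all 12108 tested genes were called, 1.99% as higher and 2.82% as lower. Ankrd1 did not reach the filter on low counts in this line and was not tested in it.

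Wwtr1 was at 33.2, 31.7, 36.2 and 23.8 CPM in livers labelled RPN11 knockout, against 51.9, 46.2, 45.4 and 40.5 CPM in RPN11 flox/flox livers. The groups did not overlap, as for 17.6% of tested genes, 10.3% in that direction. The log2 fold change was -0.54 (SE 0.13, edgeR adjusted p = 0.0386). The call rested close to the threshold. It was lost without labelled knockout 1 (adjusted p = 0.0574) or 2 (0.0935), without flox/flox liver 1 (0.140), 2 (0.0980), 3 (0.123) or 4 (0.0838), with plain library totals (0.0574), with no filter on low counts (0.0595) and in 1 fit of all 16 livers (0.0638). The RPN11 flox/flox livers were the highest of the 4 groups for Wwtr1, at 46.0 ± 4.65 CPM (SD, n = 4). Yap1, its paralogue, was at 89.3, 75.6, 91.9 and 57.1 CPM in livers labelled RPN11 knockout, against 82.7, 95.9, 79.2 and 82.5 CPM in RPN11 flox/flox livers. Its groups overlapped (log2 fold change -0.10, SE 0.13, edgeR adjusted p = 0.690), with labelled knockout 4 the lowest of the 8.

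Tead1 was at 20.1, 16.2, 19.1 and 15.0 CPM in livers labelled RPN11 knockout and at 18.4, 15.5, 18.6 and 24.0 CPM in RPN11 flox/flox livers, with overlap. Its log2 fold change was -0.09 (SE 0.15, edgeR adjusted p = 0.738).

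Ctgf was at 10.4, 21.2, 10.6 and 21.3 CPM in livers labelled RPN11 knockout, against 7.71, 6.91, 10.4 and 8.18 CPM in RPN11 flox/flox livers. Labelled knockouts 2 and 4 held about as much as each other and labelled knockouts 1 and 3 lay just at the top of the controls. Labelled knockouts 1 and 3 are also the libraries that were most alike over all genes. The log2 fold change was 0.97 (SE 0.28, edgeR adjusted p = 0.0676). Ctgf passed the test with DESeq2 (adjusted p = 0.0154), without labelled knockout 1 (0.0422) and without labelled knockout 3 (0.0476). Cyr61 showed no such split, at 7.63, 5.85, 6.66 and 7.30 CPM in livers labelled RPN11 knockout, against 10.1, 8.08, 11.1 and 6.47 CPM in RPN11 flox/flox livers. Its log2 fold change was -0.35 (SE 0.22, edgeR adjusted p = 0.331).

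Ankrd1 had 9, 1, 7 and 1 reads in livers labelled RPN11 knockout, against 18, 6, 14 and 5 reads in RPN11 flox/flox livers. The higher counts again fell on labelled knockouts 1 and 3, where Ctgf was low. With no filter, the edgeR adjusted p was 0.510. Amotl2 was at 35.3, 36.3, 26.9 and 26.9 CPM in livers labelled RPN11 knockout, against 37.5, 28.7, 35.0 and 40.9 CPM in RPN11 flox/flox livers. The groups overlapped, and the log2 fold change was -0.15 (SE 0.14, edgeR adjusted p = 0.526).

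The effects in the lines were set against each other in 1 fit of all 16 livers. Tead1 was the member whose effects differed past the threshold, with a METTL3 effect higher than the RPN11 effect by 1.02 on the log2 scale (SE 0.24, edgeR adjusted p = 0.0106). That is 1 of 7 genes, a share close to the 13.1% of all 13118 tested genes that were called, 6.15% as higher and 6.96% as lower. The call held under all 24 alternatives, with differences from 0.89 to 1.31 and adjusted p from 0.00204 to 0.0287. Cyr61 differed by 1.18 (SE 0.45, edgeR adjusted p = 0.0888) and passed without METTL3 knockout 1 (adjusted p = 0.0312) or without METTL3 flox/flox liver 3 (0.0464). Ctgf differed the other way, by -1.05 (SE 0.46, edgeR adjusted p = 0.143), and passed without METTL3 knockout 3 (-1.43, adjusted p = 0.0353). Wwtr1 (0.38, SE 0.22), Amotl2 (-0.44, SE 0.25), Yap1 (0.22, SE 0.20) and Ankrd1 (2.47, SE 1.31) had adjusted p from 0.233 to 0.536, so the fall of Wwtr1 in one line and of Amotl2 in the other are not shown to differ between the lines. The difference for Wwtr1 passed with plain library totals (0.62, adjusted p = 0.0192).

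The controls of the lines were compared as well, METTL3 flox/flox with RPN11 flox/flox livers. None of the 7 was called by edgeR, where 0.319% of all 11905 tested genes were called. Unadjusted p lay under 0.05 for 3 of them, Tead1 (0.00162), Wwtr1 (0.00479) and Ctgf (0.0118), where it did for 16.5% of tested genes. DESeq2 called Tead1 (adjusted p = 0.0213), and voom with quality weights called none. Tead1 was lower in METTL3 flox/flox livers by -0.65 on the log2 scale (SE 0.17, edgeR adjusted p = 0.0889) and Wwtr1 by -0.39 (SE 0.12, edgeR adjusted p = 0.124). These 2 genes had no overlap between the controls, which held for 9.15% of tested genes, 5.33% in that direction. Ctgf was 12.7 ± 3.62 CPM in METTL3 flox/flox livers and 8.30 ± 1.51 CPM in RPN11 flox/flox livers (SD, n = 4 each, log2 fold change 0.63, edgeR adjusted p = 0.178). Line and processing cannot be told apart in this comparison.

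The other genes of the pathway were read from 9 lists that cover the remaining TEAD factors, the kinases above YAP, its binding partners, further targets and the programs that share its targets. Of the 116 genes named, 112 were in the table. In the METTL3 line 39 of 105 tested genes rose and 2 fell, against 15.2% and 15.3% of all tested genes. In the RPN11 line 3 of 102 rose and 2 fell, against 1.99% and 2.82% of all tested genes. Of the 41 calls in the METTL3 line, 38 remained without METTL3 knockout 4, and leaving out other single livers kept from 33 (flox/flox liver 1) to 40 (knockout 1). Actb, Atf3, Cnn2, Egr2, Rbms3, Smad2, Spp1 and Tagln each lost their call in at least 1 of these fits, with adjusted p up to 0.123. Of the 5 calls in the RPN11 line, all remained without labelled knockout 4, 3 without labelled knockout 1, 2 without labelled knockout 2 and 1, that of Skil, without RPN11 flox/flox liver 1, 3 or 4. Plain library totals gave 62 higher and 1 lower in the METTL3 line, with the shift of all genes stated above. The lists are described by counts and medians, with no test of a list. Counts called in each list below stand beside the shares of all tested genes, 15.2% higher in the METTL3 line and 1.99% in the RPN11 line.

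**Figure D2:**
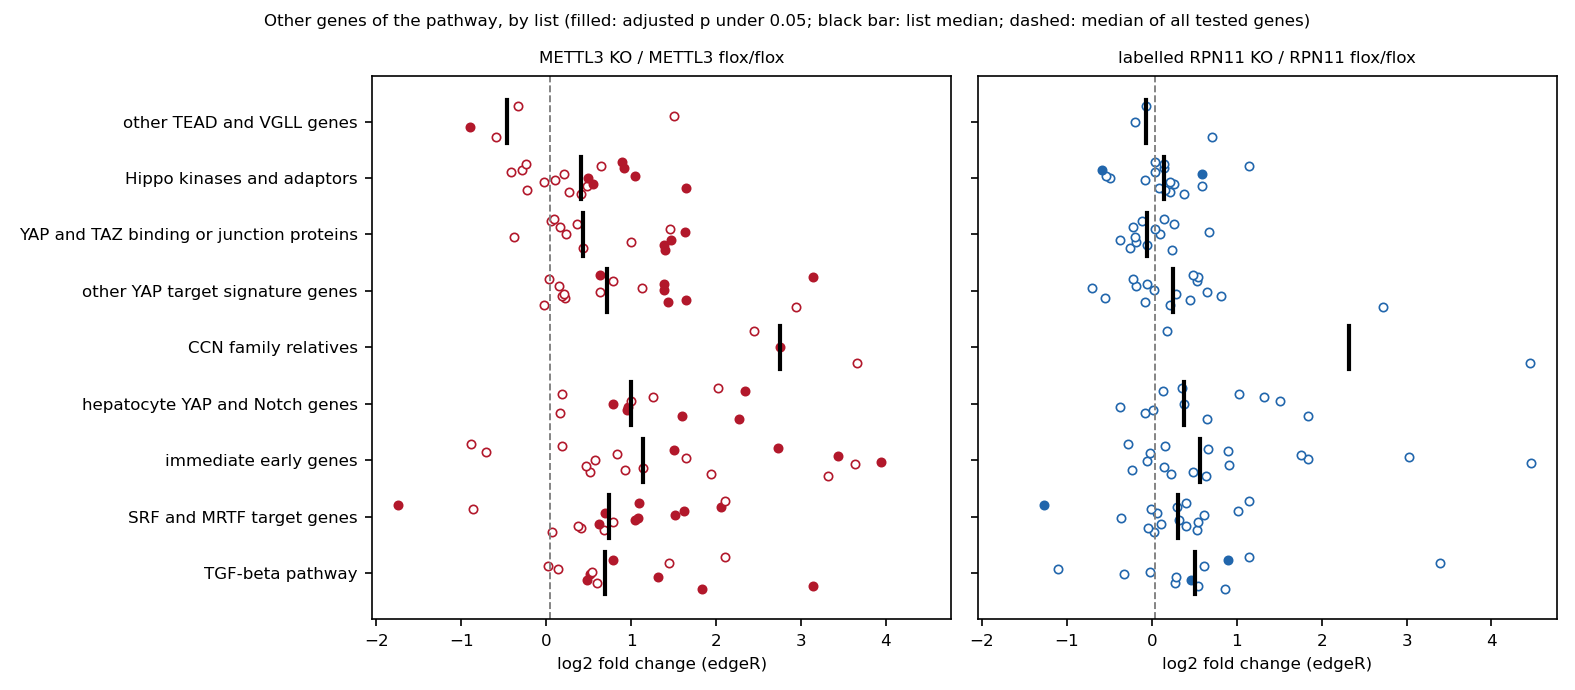
Log2 fold changes from edgeR (horizontal axis) of the other genes of the pathway, 1 point a gene, by list, for METTL3 knockout over METTL3 flox/flox livers at left and livers labelled RPN11 knockout over RPN11 flox/flox livers at right. Filled points have an adjusted p under 0.05, black bars are list medians and the dashed lines are the medians of all tested genes (0.04 and 0.03), and 41 genes are filled at left and 5 at right, with a gene of more than 1 list drawn in each.

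Among the DNA-binding partners, Tead3 fell in METTL3 knockouts, opposite to Tead1. It was at 5.28, 4.96, 4.44 and 3.45 CPM in METTL3 knockouts, against 9.01, 9.90, 6.25 and 8.71 CPM in METTL3 flox/flox livers. The groups did not overlap (log2 fold change -0.90, SE 0.24, edgeR adjusted p = 0.0158), and the call was lost with plain library totals (-0.50, adjusted p = 0.129). Tead2, Tead4 and the TEAD cofactor gene Vgll4 did not pass the test, at -0.59, 1.51 and -0.33 on the log2 scale. Tead2 and Tead4 lay at or under 1.79 CPM in every liver. None of the 3 tested genes of this list was called in the RPN11 line by edgeR, DESeq2 or voom, and none had an unadjusted p under 0.05, where 25% of all tested genes did.

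Of the Hippo kinases and their adaptors, 6 of 17 rose in METTL3 knockouts and none fell, with a median log2 fold change of 0.41 beside 0.04 for all tested genes. Mob1a, which encodes a coactivator of the LATS kinases, was at 30.3, 22.3, 23.1 and 26.9 CPM in METTL3 knockouts, against 9.24, 4.08, 6.03 and 13.6 CPM in METTL3 flox/flox livers (log2 fold change 1.64, edgeR adjusted p = 0.00382). The kinase gene Lats1 rose by 0.55 (edgeR adjusted p = 0.00869), and the KIBRA family genes Wwc1 and Wwc2, whose proteins promote LATS activity, by 0.49 and 1.04 (edgeR adjusted p = 0.0111 and 0.0128). Map4k4 and Frmd6 were the other 2 that rose. For Mob1a and Wwc2 the METTL3 flox/flox livers were the lowest of the 4 groups. Mob1a averaged 8.25 CPM there, against 16.1 CPM in RPN11 flox/flox livers, and Wwc2 6.55 against 13.0 CPM. METTL3 knockouts averaged 13.4 CPM for Wwc2. Between the controls the log2 fold changes were -0.95 for Mob1a, -0.97 for Wwc2, -0.68 for Map4k4 and -0.45 for Frmd6. Those of Lats1 and Wwc1 were 0.03 and 0.08. None of the 6 was called there by edgeR (adjusted p from 0.0778 to 0.907). In the RPN11 line 1 of 17 rose and 1 fell. These were the TAO kinase genes Taok1 (log2 fold change 0.59, edgeR adjusted p = 0.0375) and Taok3 (-0.58, edgeR adjusted p = 0.0152). Taok1 was at 96.3, 88.2, 85.8 and 123 CPM in livers labelled RPN11 knockout, against 71.8, 61.6, 63.1 and 70.5 CPM in RPN11 flox/flox livers. Both calls were lost without RPN11 flox/flox liver 1, 3 or 4, with adjusted p from 0.0902 to 0.118 for Taok1 and from 0.0624 to 0.0685 for Taok3. That of Taok1 was also lost without labelled knockout 1 (0.0557), labelled knockout 2 (0.0590) or flox/flox liver 2 (0.0882), and that of Taok3 in 1 fit of all 16 livers (0.0762).

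Among proteins that bind YAP and TAZ or sit at junctions, 4 of 13 tested genes rose in METTL3 knockouts and none fell (median 0.43). Amot, which encodes the paralogue of the Amotl2 protein, moved opposite to Amotl2. It was at 22.3, 30.2, 31.7 and 20.4 CPM in METTL3 knockouts, against 12.8, 8.16, 9.65 and 9.11 CPM in METTL3 flox/flox livers (edgeR adjusted p = 0.000744 for a log2 fold change of 1.40, SE 0.20). The groups did not overlap. Ajuba, a LIM protein that restrains LATS, and the phosphatase gene Ptpn14 rose by 1.64 and 1.38 (edgeR adjusted p = 0.00139 and 0.0138). None of the 13 was called by edgeR in the RPN11 line, where 1 higher and 1 lower gene had an unadjusted p under 0.05, DESeq2 called none and voom called 1 as lower.

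Of the further genes of published YAP target signatures, 6 of 16 tested rose in METTL3 knockouts and none fell (median 0.71). The receptor tyrosine kinase gene Axl was at 30.9, 40.3, 35.8 and 57.2 CPM in METTL3 knockouts, against 10.6, 15.5, 13.4 and 13.3 CPM in METTL3 flox/flox livers (log2 fold change 1.65, edgeR adjusted p = 0.000509). Asap1, a regulator of ARF GTPases, rose by 1.44 and the matrix gene Ccdc80 by 1.39 (edgeR adjusted p = 0.000744 and 0.00183). The others that rose were Ptpn14, Tgfb2 and Rbms3, the last of which lost its call without knockout 1, 2 or 3 or flox/flox liver 1, 3 or 4 (adjusted p up to 0.0961). None of the 16 was called by edgeR in the RPN11 line (median 0.25), where 4 higher genes and 1 lower gene had an unadjusted p under 0.05, DESeq2 called 1 as higher and voom none. Of the CCN relatives of Ctgf and Cyr61, Wisp1 was at 5.51, 8.63, 11.7 and 4.88 CPM in METTL3 knockouts, against 1.05, 1.48, 0.661 and 1.34 CPM in METTL3 flox/flox livers (log2 fold change 2.75, edgeR adjusted p = 0.000744). Nov, another relative, was at 17.3 CPM in METTL3 knockout 4 and 30.04 CPM in labelled RPN11 knockout 4 and at or under 1.10 CPM in the other 14 livers, the same libraries that held the neural transcripts.

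Genes that active YAP or Notch is known to raise in mouse hepatocytes showed 6 of 11 tested genes higher and none lower in METTL3 knockouts (median 1.001). Sox9, a transcription factor of biliary and progenitor-like cells, was at 25.7, 38.3, 44.5 and 33.9 CPM in METTL3 knockouts, against 6.36, 8.50, 5.95 and 8.83 CPM in METTL3 flox/flox livers. That is a 4.82-fold difference without overlap (log2 fold change 2.27, SE 0.21, edgeR adjusted p = 0.000123). The cyclin gene Ccnd1 was at 52.9, 75.5, 37.6 and 69.1 CPM in METTL3 knockouts, against 13.6, 11.7, 10.4 and 10.8 CPM in METTL3 flox/flox livers (edgeR adjusted p = 0.00014 for a log2 fold change of 2.35, SE 0.22). Notch2 and its target Hes1 rose by 0.97 and 0.78 (edgeR adjusted p = 0.00891 and 0.00769), as did Notch1 and Spp1. The call of Spp1 was lost without METTL3 flox/flox liver 1, 3 or 4 (adjusted p up to 0.0571). In the RPN11 line none of the 11 was called by edgeR (median 0.38). Unadjusted p lay under 0.05 for 3 higher genes and 1 lower gene, DESeq2 called 1 as higher and voom called 1 higher and 1 lower. Sox9 came closest there, at 15.8, 15.5, 12.8 and 11.6 CPM in livers labelled RPN11 knockout, against 10.9, 8.40, 9.51 and 7.12 CPM in RPN11 flox/flox livers, without overlap (log2 fold change 0.66, SE 0.18, edgeR adjusted p = 0.0572), as for 7.29% of tested genes. Sox9 and Spp1 also stand among the cholangiocyte markers.

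Programs that share targets with YAP were read in the same way. Of the SRF and MRTF target genes, which serve the actin cytoskeleton, 8 of 16 rose in METTL3 knockouts and 1 fell (median 0.74). Flna, the filamin A gene, was at 44.2, 57.0, 52.2 and 96.5 CPM in METTL3 knockouts, against 20.1, 20.8, 20.5 and 20.7 CPM in METTL3 flox/flox livers (log2 fold change 1.62, edgeR adjusted p = 0.000848). Tpm1 rose by 2.06 and Tpm4 by 1.10, while Tpm2, also a tropomyosin gene, fell by 1.74 (edgeR adjusted p = 0.00133, 0.000903 and 0.00155). Tpm2 fell in the RPN11 line too, by 1.27 (edgeR adjusted p = 0.0182). That call was lost without labelled knockout 2 (adjusted p = 0.0573) or without RPN11 flox/flox liver 1 (0.0635), 3 (0.0779) or 4 (0.0781). Of the TGF-beta pathway, 6 of 12 rose in METTL3 knockouts (median 0.69) and 2 of 12 in the RPN11 line (median 0.50). The ligand gene Tgfb2 rose by 3.15 and the receptor gene Tgfbr2 by 1.31 in METTL3 knockouts (edgeR adjusted p = 0.00396 and 0.00163). Tgfb2 averaged 3.47 CPM in METTL3 knockouts and 0.388 CPM in METTL3 flox/flox livers. It had 39 reads in all in those controls, so the size of its rise rests on few reads. Skil, a feedback inhibitor of SMAD signalling, was higher in both lines. It was at 37.1, 46.7, 39.5 and 48.9 CPM in livers labelled RPN11 knockout, against 23.6, 26.1, 19.6 and 25.4 CPM in RPN11 flox/flox livers (edgeR adjusted p = 0.0106 for a log2 fold change of 0.89, SE 0.14), and rose by 0.79 in METTL3 knockouts (edgeR adjusted p = 0.00647). Tgfbr1 rose by 0.48 in METTL3 knockouts (edgeR adjusted p = 0.0114) and by 0.46 in livers labelled RPN11 knockout (edgeR adjusted p = 0.0287), a call lost there without labelled knockout 1, 2 or 3 or flox/flox liver 1, 3 or 4 (adjusted p from 0.0568 to 0.116) and with no filter on low counts (0.0618).

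Immediate early genes are transcribed soon after growth and stress signals. Of these, 4 of 17 tested rose in METTL3 knockouts (median 1.14), where 15.2% of all tested genes were called higher. None of 16 was called by edgeR in the RPN11 line (median 0.57). There 7 genes, all higher, had an unadjusted p under 0.05, DESeq2 called 3 as higher and voom none. Klf6 was at 25.2, 54.4, 64.4 and 67.9 CPM in METTL3 knockouts, against 17.0, 17.3, 21.3 and 19.3 CPM in METTL3 flox/flox livers (log2 fold change 1.51, edgeR adjusted p = 0.00313), and Btg2 rose by 2.73 (edgeR adjusted p = 0.00745). Atf3 was at 0.925, 17.0, 16.6 and 46.8 CPM in METTL3 knockouts, against 1.48, 0.932, 3.04 and 2.20 CPM in METTL3 flox/flox livers. Its call (edgeR adjusted p = 0.0402) was lost on leaving out any 1 of the 8 livers other than knockout 1 (adjusted p from 0.0659 to 0.106) and with voom (0.134). Egr2 lost its call (edgeR adjusted p = 0.0229) without any 1 of the METTL3 flox/flox livers (adjusted p from 0.0520 to 0.0721) and with voom (0.386). Btg2 was highest in METTL3 knockout 3, at 158 CPM, the liver that also held the highest Ctgf, Cyr61 and Ankrd1 of its group. Klf6 and Atf3 were instead highest in METTL3 knockout 4.

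The METTL3 effect differed from the RPN11 effect past the threshold for 20 of 107 tested genes of the 9 lists, all of them higher in the METTL3 line, where 6.15% of all tested genes were called higher and 6.96% lower. Ccnd1 differed by 2.21 (edgeR adjusted p = 0.000649) and Sox9 by 1.62 (edgeR adjusted p = 0.00111). Wwc2, Notch2, Wwc1, Amot, Asap1, Ccdc80 and Axl followed, with differences from 0.98 to 1.59 and adjusted p from 0.00394 to 0.0118. These 9 calls held when each liver was left out in turn, while those of Btg2, Tgfb2, Tpm4, Tagln and Vcl did not (adjusted p up to 0.116). Leaving out both replicate 4 knockouts kept 19 of the 20. Such a difference of effects also takes in any gap between the control groups, as given above for Wwc2. Between METTL3 flox/flox and RPN11 flox/flox livers edgeR called 1 of 98 genes, Actg1 (log2 fold change 0.75, edgeR adjusted p = 0.0389). Of all tested genes, 0.0756% were called as higher there. Leaving out METTL3 flox/flox liver 1 or 3 or RPN11 flox/flox liver 1, 2 or 3 ended that call (adjusted p up to 0.165), as did 1 fit of all 16 livers (0.518). DESeq2 called 3 Hippo genes, 2 YAP target signature genes, 1 binding or junction gene and 1 YAP and Notch gene as lower. Of the SRF and MRTF targets it called 1 higher and 1 lower. Voom called 1 Hippo gene and 1 binding or junction gene as lower and 1 SRF and MRTF target as higher. Of 17 Hippo genes, 4 lower and 1 higher had an unadjusted p under 0.05, where 16.5% of all tested genes did.

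Markers of the cells that whole liver holds moved in the METTL3 line too, where 15.2% of all tested genes were called higher and 15.3% lower. Summed stellate cell and fibroblast markers ran from 550 to 701 CPM in METTL3 knockouts, against 266 to 341 CPM in METTL3 flox/flox livers, and 8 of the 10 markers were called higher. Kupffer cell and macrophage markers ran from 314 to 434 CPM in METTL3 knockouts, against 123 to 177 CPM in METTL3 flox/flox livers, with 7 of 7 tested called higher. Sinusoidal endothelial markers ran from 242 to 266 CPM in METTL3 knockouts and from 167 to 202 CPM in METTL3 flox/flox livers (4 of 8 tested higher). Hepatocyte markers summed to 61172 to 142840 CPM in METTL3 knockouts, against 141338 to 167283 CPM in METTL3 flox/flox livers, and 4 of 8 were called lower. Cholangiocyte markers ran from 226 to 549 CPM in METTL3 knockouts and from 91.1 to 176 CPM in METTL3 flox/flox livers, with 2 of 8 higher. No marker of these 5 lists that the table holds was at 0 in a whole group. Their part in the changes of Tead1, Amotl2 and the other pathway genes was not tested.

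In the RPN11 line edgeR called 1 of 10 stellate cell and fibroblast markers, 1 of 8 hepatocyte markers and 1 of 2 tested lymphocyte markers, each as higher. Of all tested genes, 1.99% were called higher and 2.82% lower there. Stellate cell and fibroblast markers summed to 330 to 442 CPM in livers labelled RPN11 knockout, against 280 to 348 CPM in RPN11 flox/flox livers. Hepatocyte markers summed to 97386 to 134713 CPM in livers labelled RPN11 knockout, against 141113 to 167228 CPM in RPN11 flox/flox livers. Most of these sums was Alb, at 70689 to 99665 CPM in livers labelled RPN11 knockout and 106909 to 135571 CPM in RPN11 flox/flox livers. No hepatocyte marker was called lower in this line, and the median log2 fold change of the list was -0.03. Cholangiocyte markers reached 622 CPM in labelled RPN11 knockout 4, against 86.0 to 121 CPM in the other 7 livers of that line. Of the remaining lists, lymphocyte markers ran from 30.6 to 56.0 CPM in METTL3 knockouts against 10.97 to 19.5 CPM in METTL3 flox/flox livers. They ran between 27.96 and 56.3 CPM in livers labelled RPN11 knockout, against 14.9 to 18.9 CPM in RPN11 flox/flox livers. Most of these sums was Ptprc, at 27.9 to 52.8 CPM in METTL3 knockouts and 25.6 to 55.0 CPM in livers labelled RPN11 knockout. The other lymphocyte markers in the table lay at or under 1.82 CPM in every liver, so the sums describe Ptprc more than the list. Mesothelial markers ran from 2.19 to 12.6 CPM in METTL3 knockouts and from 0.370 to 3.15 CPM in the other 12 livers. Ankrd1 is best known from striated muscle, and the 5 muscle markers found in the table, of 9 listed, summed to at most 0.741 CPM in any liver. Myh1 was at 0 in all groups but METTL3 knockouts, and Acta1 was at 0 in both groups of the RPN11 line.

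**Figure D3:**
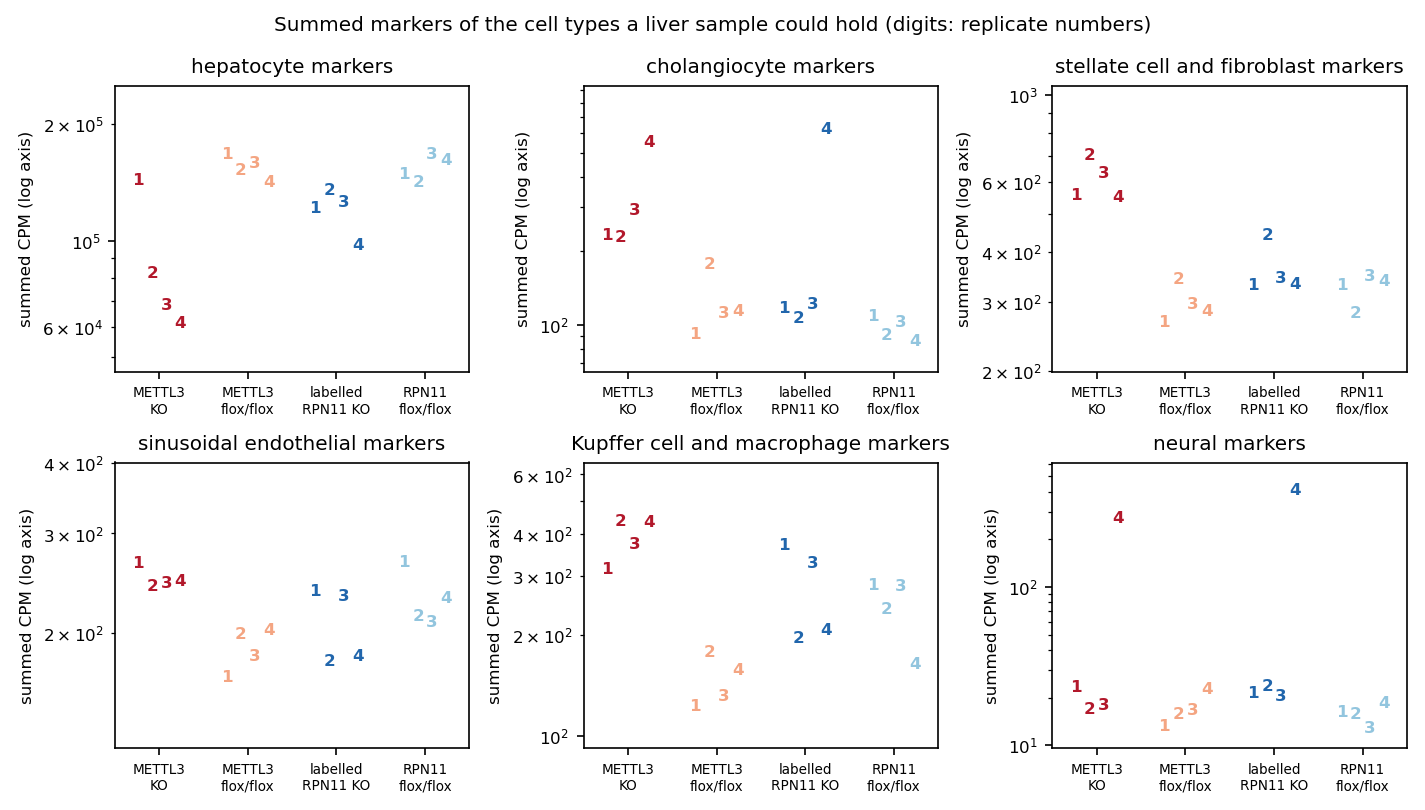
Summed level of 6 marker lists in each liver (vertical axis, CPM, log scale), with digits giving the replicate number. Stellate cell and Kupffer cell sums lie above the METTL3 flox/flox livers in all 4 METTL3 knockouts, and neural sums stand apart in METTL3 knockout 4 (270 CPM) and labelled RPN11 knockout 4 (408 CPM).

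Across the 16 livers each member was then set beside the other genes with a mean of at least 1 CPM (11523 for Ankrd1 and 11522 for the other members), by Pearson's r of log2(CPM + 0.5). The livers share 4 groups, so r describes group levels as well as spread within groups, and it is given without a test. Hsf1 (r = 0.81) and Mrgbp (r = 0.80) were among the genes most like Ctgf.

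The members were mostly unlike each other. Cyr61 and Ankrd1 were the closest, at r = 0.80, with Cyr61 ranking 22 among all genes for likeness to Ankrd1. Ankrd1 had 0 to 89 reads in the 16 livers and lay under the mean of 1 CPM asked of the other genes. Its r values, here and below, thus rest on low counts. Ctgf and Cyr61, though close relatives, had r = 0.24 over the same livers. Yap1 and Wwtr1 had r = 0.43, and -0.04 over the 14 livers without the replicate 4 knockouts. Amotl2 depended on those livers too, with r = -0.02 to Yap1 over the 16 livers and -0.70 over the 14, and r = 0.46 and 0.06 to Wwtr1. Ctgf and Wwtr1 ran opposite, at r = -0.59 with and without those livers. The gene most like Ankrd1 was Bcl6b (r = 0.94), then Serpinb1a and Gltscr1 (r = 0.87 each). Cyr61 was closest to Dapk2, Cyp2d12 and Sept9 (r = 0.86, 0.86 and 0.85), and Tead1 to Ptpn9, Lacc1 and Uhrf1 (r = 0.89, 0.88 and 0.86). Wwtr1 was closest to Rab5b, Bcl2l13 and Parva (r = 0.94, 0.94 and 0.93) and Amotl2 to Inmt, Rpain and Hsd11b1 (r = 0.92, 0.90 and 0.90). Yap1 was closest to Mtus1, H6pd and Ssr3 (r = 0.92, 0.89 and 0.89). Without the replicate 4 knockouts these ranked 43, 199 and 150 (r = 0.82, 0.74 and 0.76), and Hsd11b1 ranked 88 for Amotl2 (r = 0.76), while the other genes named here for likeness ranked 11 or better.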

How the data were processed

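The submitters' processing notes name cutadapt 1.9.3, HISAT2 2.0.4, HTSeq 0.9.1, edgeR and the build mm10 for reads from rRNA-depleted total RNA of 16 livers. The sources used here do not give the gene annotation, the strandedness or the version of that edgeR. The authors deposited whole-number counts per gene in 16 columns, which were used here, and 16 columns of normalized values, which were not. Columns were matched to livers by title.

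Each line was fitted alone (edgeR 4.0.16, R 4.3.3, filterByExpr, TMM, robust quasi-likelihood test, Benjamini-Hochberg over all tested genes, called under 0.05), with 4 knockout and 4 flox/flox livers and 6 residual degrees of freedom. The METTL3 minus RPN11 effect was an interaction contrast in 1 fit of 16 livers. RPKM used union exon lengths of GENCODE M21, where 16804 of 16973 identifiers were found. Standard errors hold counting error and spread between livers, and intervals from a count of 0 (3 reads) cover counting error only. DESeq2 1.42.0, voom with quality weights (limma 3.58.1), RLE size factors, other filters, a replicate block, a joint fit, each liver left out and, added after seeing the data, plain library totals were the alternatives.

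The members, lists and alternatives were chosen with earlier results of these data known. The rule for names takes the 7 members, Mettl3 and Psmd14, the 4 lowest p of each list in each line and the 3 genes most like each member, of which 2 genes are not reported here. Map4k4, Frmd6, Notch1, Spp1, Actb, Cnn2, Smad2, Tagln, Vcl and Actg1 were named after their values were seen.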

Additional observations from a re-analysis of the deposited data

Results flagged for a closer look

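The effect on Tead1 differed between the lines, which singled it out among the 7 genes. METTL3 knockouts stood above their flox/flox controls and livers labelled RPN11 knockout did not, and the METTL3 effect minus the RPN11 effect was 1.02 on the log2 scale (SE 0.24, edgeR adjusted p = 0.0106). Tead1 was higher in 4 of 4 METTL3 knockouts than in any METTL3 flox/flox liver, while the METTL3 flox/flox livers lay below all 4 RPN11 flox/flox livers. Between these controls the log2 fold change of Tead1 was -0.65 (SE 0.17, edgeR adjusted p = 0.0889). DESeq2 called it (adjusted p = 0.0213) and voom with quality weights did not. The gap between controls enters the difference of effects, and how large a part it has was not tested. Each of the 28 combinations of a gene and a group of 4 livers was also looked at for a liver far from the others, and none passed, where chance alone would pick about 1 in 20.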

How the results depend on the processing

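Of 484 values of the 7 genes under alternatives, 459 stayed on their side of the threshold, 14 were no longer past it, 11 came past it and 0 turned sign while called. Members called in the METTL3 line numbered 2, against 3 with plain library totals (Tead1, Yap1 and Cyr61, without Amotl2), 3 with the replicate block and 1 to 2 with single livers left out. In the RPN11 line 1 was called, against 0 with plain library totals, with no filter and in 1 fit of all 16 livers, 2 with DESeq2 and 0 to 2 with single livers left out. In the difference 1 was called, against 2 with plain library totals and 1 to 2 with single livers left out. Between the flox/flox groups 0 were called, and 1 with DESeq2.

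Over all genes, plain library totals split the METTL3 calls into 4077 higher and 789 lower, against 1893 and 1906, and the RPN11 calls into 662 and 222 (884 in all, against 583). The RPN11 count was 350 with no filter, 1333 with DESeq2, 1458 with voom, 343 in 1 fit of all 16 livers and 59 to 941 with single livers left out. The difference gave 1720 calls, 3478 with voom and 1095 to 2663 with single livers left out. The flox/flox comparison gave 38, and 66 with RLE size factors, 144 with no filter, 83 at a mean of at least 5 CPM, 412 with DESeq2, 174 with voom, 1 in 1 fit of all 16 livers and 1 to 282 with single livers left out. The other pathway genes called in the METTL3 line numbered 63 with plain library totals, against 41, those in the RPN11 line 9, 12 with DESeq2 and 9 with voom, against 5, and those in the difference 33 with voom, against 20. The causes were not tested.

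The labels tie no replicate number to a shared litter, batch or day, and the numbers were not taken to pair the livers. Same-numbered livers deviated together with correlations of 0.0776 to 0.246 in the METTL3 line, where 3 of 4 correlated best with their own number, and of -0.0741 to -0.0113 in the RPN11 line. With the replicate block the METTL3 line gave 3837 calls, the RPN11 line 376 and the flox/flox comparison 7, and Cyr61 came past the threshold in the METTL3 line (log2 fold change 0.73, edgeR adjusted p = 0.0203). Other pathway genes that lost a call under the block were Tgfbr1 in the RPN11 line (edgeR adjusted p = 0.0598), Tgfb2 in the difference (0.0538) and Actg1 between the flox/flox groups (0.0848). Counts of 0 to 89 reads limit what can be said of Ankrd1.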
